A study of Mus musculus with 11 samples.

Results

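The classic model odorant receptor (OR) genes are the receptors with which receptor choice and axon targeting have mostly been studied in the mouse. They were taken by symbol from the deposited counts: Olfr2, Olfr6, Olfr15, Olfr16, Olfr17, Olfr73, Olfr78, Olfr151, Olfr160 and Olfr1507, which are 10 of 1125 Olfr symbols and of 24421 entries in all. The rule uses their symbols and no measured value, and all 10 had at least 1 count. Transcripts were counted by RNA-seq in 11 libraries of main olfactory epithelium (MOE), the nasal tissue that holds the olfactory sensory neurons (OSNs). The mice carried a deletion of the cluster of trace amine-associated receptor (TAAR) genes, which runs from Taar2 up to Taar9, on neither chromosome (wild type, n = 3), on 1 (TAAR cluster +/-, heterozygous, n = 4) or on both (TAAR cluster -/-, homozygous, n = 4). All animals were labelled as C57BL/6 at postnatal day 1 to 2, whereas the paper describes this knockout line at a later age and on a mixed background, which was not settled. The deletion removed TAAR enhancer 2 and left TAAR enhancer 1 in place, and no OR gene was targeted. The labels do not say whether libraries came from separate litters, or of which sex, so p-values measure the spread between these libraries.

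An OR is a G protein-coupled receptor for odorants, and a mature OSN expresses 1 of the OR genes from 1 of its alleles. The receptor that a neuron chooses also directs its axon, so that the neurons sharing a receptor converge on the same few glomeruli of the olfactory bulb. Because each receptor belongs to its own small group of neurons, the level of an OR transcript in whole tissue depends on how many cells chose it as well as on the transcript in each cell, and fewer cells cannot be told apart from less RNA per cell in these data.

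The 10 genes are known in the field by other names. Olfr17 is P2, the receptor of the first genetic tracings of an axon map. Olfr160 is M72 and Olfr151 is M71, close relatives that both respond to acetophenone and that served to show how a receptor's sequence guides an axon. Olfr1507 is MOR28, whose cluster holds the H element, the first enhancer described for OR genes. Olfr16 is MOR23, a receptor for lyral, Olfr73 is mOR-EG, a receptor for eugenol, and Olfr2 is I7, a receptor for octanal. Olfr15 is OR3, which responds to many odorants, and Olfr6 is M50. Olfr78 is MOR18-2, a receptor for short fatty acids that is also made outside the nose, and it is the only class I receptor among the 10, the others being class II.

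In the GENCODE mouse annotation (release M21, mm10), 9 of the genes were protein coding and Olfr151 was a polymorphic pseudogene. Olfr2 (chr7:106995399-107006072), Olfr6 (chr7:106953251-106963937) and Olfr17 (chr7:107093220-107099808) lay in 1 cluster, and Olfr78 (chr7:102738511-102759471) lay apart from them on the same chromosome. Olfr160 (chr9:37708964-37716250) and Olfr151 (chr9:37729977-37731104) were near each other on chromosome 9. The other 4 were each on their own chromosome: Olfr15 (chr16:3830878-3844747), Olfr16 (chr1:172950409-172958357), Olfr73 (chr2:88032288-88037699) and Olfr1507 (chr14:52488791-52495749). Olfr15, Olfr16 and Olfr17 were on the plus strand and the other 7 on the minus strand. The coding sequence of each was in 1 exon block. The untranslated exons differed much more in extent, and the merged exons spanned from 1128 bases in Olfr151 to 6834 bases in Olfr6, against a median of 2936 bases over all Olfr models. Olfr78 shared exon sequence on the same strand with Olfr560, which had 45 counts in all 11 libraries together.

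The receptors were compared over their whole coding sequences, taken from the GENCODE transcripts. Among the 45 pairs the median identity was 56.4%, with 51.1% as the lowest value and 61.1% as the second highest. The exception was the pair of Olfr151 and Olfr160 at 96.3%, with 30 differing bases and 4 gap positions.

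The coding sequence of Olfr151 in the reference genome was not open to its end. It was 1 base shorter than that of Olfr160 in a run of g, and the shifted frame met a stop codon at coding bases 775 to 777. The stretch is shown because it sets the pseudogene apart from its close relative. The sequences are from the GENCODE transcripts (mm10), 5′ to 3′ on the strand of the gene. In Olfr160 the capital marks the base with no partner in Olfr151, whose place within the run is arbitrary, and in Olfr151 the capitals mark the early stop codon.
Olfr160 (chr9:37711500-37711557, minus strand): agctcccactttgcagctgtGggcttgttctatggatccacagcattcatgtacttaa
Olfr151 (chr9:37730205-37730261, minus strand): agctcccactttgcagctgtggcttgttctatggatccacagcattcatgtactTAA

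This likeness bears on how reads could be counted. Of the 51-base stretches of the coding sequence, 60.4% in Olfr151 and 60.3% in Olfr160 occurred in no other gene's transcripts. The share was 82.5% in Olfr1507, which was 92.1% identical to its neighbour Olfr1508. For the other 7 receptors it was every stretch. Over the whole transcripts, untranslated exons included, the share was 67.7% in Olfr151, 85.9% in Olfr78, 90.03% in Olfr160 and 94.1% in Olfr1507, and that of Olfr78 was shared most with Olfr560. How reads with several positions were treated is not given in the sources used here, so the counts of Olfr151, Olfr160, Olfr78 and Olfr1507 are uncertain.

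The libraries held 9239866 to 14632525 counts, of which 0.0604% to 0.141% fell on Olfr genes. The 14 deleted Taar genes summed to 87 to 119 counts in wild type, 31 to 96 in heterozygous and 1 to 3 in homozygous libraries. Libraries fell into 2 sets on the first principal component (41.6% of the variance). Set 2 was made up of wild type replicate 3, of the first 2 heterozygous libraries and of homozygous libraries 3 and 4, and set 1 of the other 6. Homozygous replicate 2 had the lowest Olfr share and stood apart in its scaling factor (0.756). The 2 calls that ended without it, of Olfr1507 and Olfr16, are given below. The summed CPM (reads of a gene scaled to the size of its library) of 8 mature OSN markers was 1076 to 1895 in wild type, 1170 to 1530 in heterozygous and 1026 to 1427 in homozygous libraries, with no marker at 0. That of 6 skeletal muscle markers was 5.47 to 50.03, 14.1 to 1469 and 16.3 to 687.

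The 10 genes differed widely in level. Together they had 4330 counts in the 11 libraries, which was on average 3.004% ± 0.292 (SD, n = 11) of the Olfr counts of a library (range 2.57% to 3.53%), and Olfr1507 and Olfr15 alone gave 58.3% of that sum. In wild type the model receptors took 2.77% ± 0.182 (SD, n = 3) of Olfr counts, in heterozygous libraries 3.06% ± 0.370 (n = 4) and in homozygous libraries 3.12% ± 0.223 (n = 4). As CPM of the unscaled library totals the homozygous mean was instead the lowest, with 35.3 ± 3.83, 35.3 ± 5.27 and 30.7 ± 7.41. Homozygous replicate 2 had 19.7, while the other 3 homozygous libraries, at 33.4 to 35.9, lay within the wild type range of 32.9 to 39.8.

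Levels of different genes were compared as CPM per kilobase of merged exons, averaged over the 11 libraries. Olfr1507 was the highest of the 10 at 3.14 ± 0.942 CPM per kb (SD, n = 11) and ranked 6 among the 1113 Olfr genes with a gene model. Olfr15 followed with 1.66 ± 0.344 (rank 20) and Olfr17 with 1.08 ± 0.166 (rank 55). These 3 were in the upper 10% of Olfr genes.

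The middle of the order was formed by Olfr6 at 0.604 ± 0.128 CPM per kb (rank 155), Olfr78 at 0.449 ± 0.140 (rank 254), Olfr16 at 0.263 ± 0.113 (rank 476) and Olfr73 at 0.248 ± 0.0508 (rank 503). Over all Olfr genes the median was 0.215 CPM per kb, so 7 of the 10 stood in the upper 50% and the other 3 below it. Olfr160 (0.154 ± 0.0566, rank 701), Olfr2 (0.153 ± 0.0711, rank 703) and Olfr151 (0.0866 ± 0.112, rank 911) were the lowest. In the wild type libraries alone Olfr16 was at rank 628 and so below the middle, Olfr6 at 217 and Olfr2 at 867, while Olfr1507 was at 4, Olfr15 at 30 and Olfr17 at 56. For comparison, the most abundant Olfr genes per kilobase were Olfr536 (9.82), Olfr513 (3.73) and Olfr722 (3.39).

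Most neighbours in this order overlapped in their ranges over the libraries. The exception was Olfr17 over Olfr6, whose lowest library (0.863 CPM per kb) was above the highest of Olfr6 (0.804). Olfr1507 was above Olfr15 in 9 of 11 libraries, and Olfr160 was above Olfr2 in 6 of 11, so the latter 2 had no order that the libraries could tell.

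**Figure D1:**
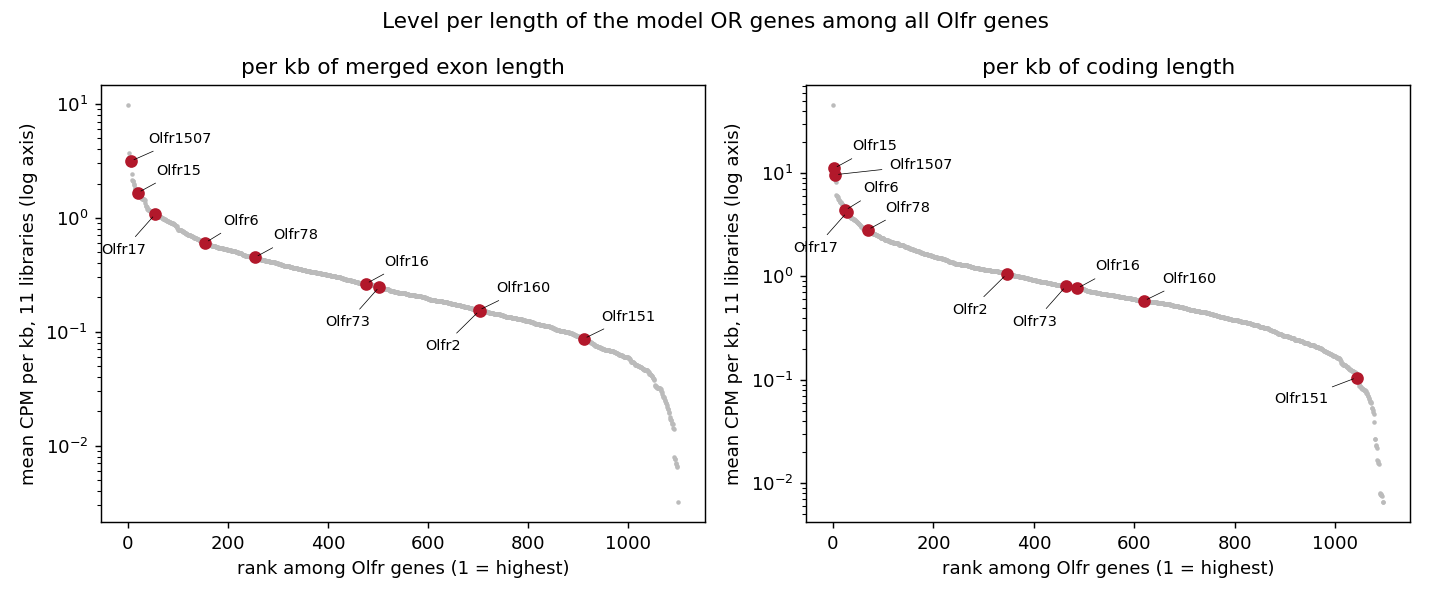
Mean CPM per kilobase over the 11 libraries (log axis) against the rank among Olfr genes, per kilobase of merged exons (left) and of coding sequence (right), with the model OR genes in red and the other Olfr genes with a count in grey. Olfr1507 is at rank 6 on the left and at rank 4 on the right, and Olfr6 moves from rank 155 to rank 24.

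The rank of some receptors depended on the length used. Per kilobase of coding sequence, which is about the same in all OR genes, Olfr15 was the highest of the 10 with 11.1 CPM per kb (rank 2 of 1109) and Olfr1507 came next with 9.63 (rank 4). The receptors with long untranslated exons moved up the most. Olfr6 went to rank 24, Olfr78 to rank 69 and Olfr2 to rank 346. Olfr151, whose model holds little untranslated sequence, went down to rank 1043. By coding length 5 of the 10 were in the upper 10%. Here Olfr1507 was above Olfr6 in 11 of 11 libraries, and Olfr78 over Olfr2 was the pair of neighbours without overlap. The annotation behind the counts is not given in the sources used here, so neither order is preferred.

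The coefficient of variation of the CPM between the libraries of a genotype was 6.52% in wild type, 31.4% in heterozygous and 26.1% in homozygous libraries for Olfr1507. For Olfr15, at a like number of counts, it was 25.4%, 19.99% and 20.7%. Counting error alone would give 8.48% to 11.01% for the former and 8.73% to 9.48% for the latter. Each value rests on 3 or 4 libraries of separate samples, and the difference between the genotypes in spread was not tested.

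In CPM the 2 library sets did not overlap in the level of Olfr15 within any genotype. It was higher in set 2 than in set 1 within each genotype, with mean CPM of 12.0 against 7.98 in wild type, 11.7 against 8.96 in heterozygous and 13.1 against 9.30 in homozygous libraries. The means of Olfr2 and Olfr6 were also higher in set 2 within each genotype, but the libraries of the sets overlapped in wild type for Olfr2 and in homozygous animals for Olfr6. For Olfr1507 the sets overlapped in every genotype. The sets were drawn from the levels of all tested genes, so many genes differ between them by construction. How many genes separated by set was not counted, so nothing particular to these receptors is read from it. Set 2 has 1 wild type library only, and the difference between the sets was not tested. With the set as a covariate the genotype calls described below were the same. The log2 fold change of Olfr1507 in homozygous against wild type libraries was -0.70 (unadjusted p = 0.0215, adjusted p = 0.705 in edgeR's test). For Olfr16 in homozygous against heterozygous libraries it was -0.87 (0.0423, adjusted 0.9998). This fit also called more of all 16574 tested genes at an unadjusted p under 0.05. There were 1132 in the former comparison, beside 500 in the main fit, and 227 in the latter, beside 93.

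**Figure D2:**
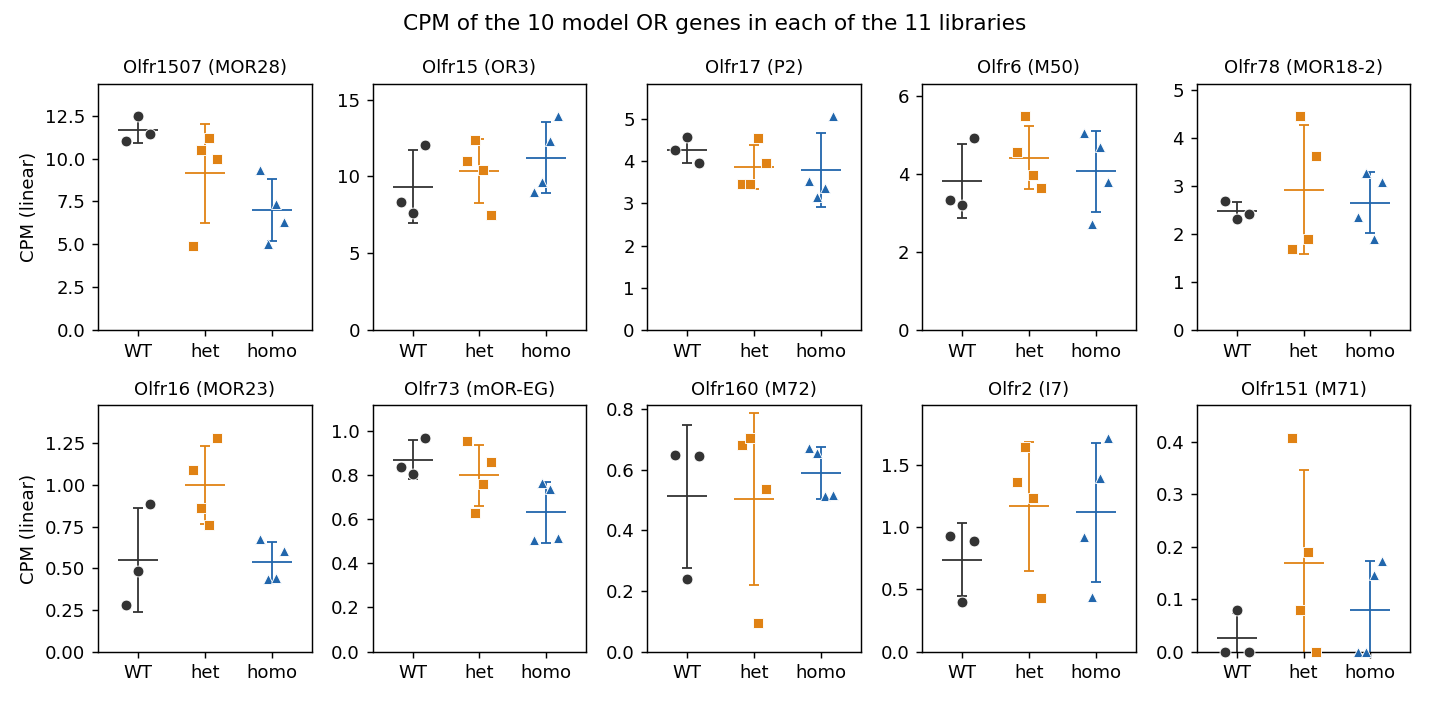
CPM (linear axis from 0, a separate scale in each panel) of the 10 model OR genes in the 11 libraries, with 1 point per library, the horizontal line at the mean and the bar for 1 SD of wild type (WT), heterozygous (het) and homozygous (homo) libraries. In CPM the 4 homozygous libraries of Olfr1507 are all below the 3 wild type libraries, while the genotypes of Olfr15, Olfr17 and Olfr160 overlap.

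To ask whether the loss of the Taar genes altered the expression of these receptors, homozygous libraries were compared with wild type in edgeR's quasi-likelihood fit of all genes. Olfr1507 (MOR28) had the lowest p-value of the 8 model receptors that were tested and was lower in homozygous libraries, though not past the adjusted threshold. It had 11.03, 12.5 and 11.5 CPM in wild type replicates 1 to 3. In homozygous replicates 1 to 4 it had 9.34, 5.02, 7.34 and 6.28 CPM. In CPM every homozygous library was below every wild type library, and the lowest was replicate 2. The mean was 11.7 ± 0.761 (SD, n = 3) in wild type and 6.99 ± 1.83 (n = 4) in homozygous libraries, a log2 fold change of -0.73 (SE 0.28, 95% interval -1.36 to -0.11). Its unadjusted p was 0.0245 and its adjusted p 0.996 in edgeR's quasi-likelihood test.

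The difference in Olfr1507 kept its direction in each of the 22 alternatives run for it, with log2 fold changes from -0.90 to -0.47. Its unadjusted p passed 0.05 in 17 of them, and its adjusted p in 0. Leaving out homozygous replicate 2 gave -0.62 (unadjusted p = 0.0639 in edgeR's test), without homozygous replicate 4 it was -0.68 (0.0519) and without wild type replicate 2 it was -0.68 (0.0667). With the replicate number as a block it was -0.73 (unadjusted p = 0.0648 in edgeR's test). With that block in a fit of only these 2 genotypes it was -0.73 (0.0152, adjusted 0.639). In the latter fit 1020 of 16163 tested genes had an unadjusted p under 0.05, beside 500 of 16574 in the main fit. The sums of the mature OSN markers given above overlapped between the genotypes, and all 8 of those markers had a lower fitted level in homozygous libraries (median log2 fold change -0.27). This was not particular to them, since 4 of 4 sustentacular cell markers were lower as well (-0.30). Of the immature OSN markers 0 of 5 and of the precursor markers 0 of 3 were lower, beside 47.2% of all tested genes. The part of these cell types in the lower level of Olfr1507 was not tested. Relative to the Olfr counts of each library, Olfr1507 had 9.53 ± 1.59 per 1000 in wild type and 6.85 ± 1.497 in homozygous libraries. There the genotypes overlapped, since homozygous replicate 1 (9.08) was above wild type replicates 1 (8.77) and 3 (8.46). On that scale the difference was -0.47 (log2) with an unadjusted p of 0.150 in edgeR's test. With the summed skeletal muscle level as a covariate it was -0.85 (0.0250).

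Of the 10 receptors, 8 passed the filter on low counts, which asks for about 10 counts in at least 3 libraries. Olfr151 and Olfr160 did not pass it. Olfr16 and Olfr73 passed it without any homozygous library at the required level, so a lower homozygous level was favoured for both. Of the 8, 0 had an adjusted p under 0.05, as did 0 of all 16574 tested genes (0%), and DESeq2 called 8 of all genes but no model receptor. The edgeR fit thus called none of the 14 deleted Taar genes either, which summed to 87 to 119 counts in wild type and 1 to 3 in homozygous libraries. At such counts the absence of a call does not show that a level was unchanged. Olfr1507 was the only 1 of the 8 with an unadjusted p under 0.05, against 3.02% of all tested genes (1.21% lower) and 6.16% of tested Olfr genes.

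The other class of change looked for was a separation of the libraries by genotype. In CPM homozygous and wild type libraries did not overlap in 2 of the 8, against 4.99% of all tested genes and 10.4% of tested Olfr genes. Beside Olfr1507 this was Olfr73 (mOR-EG), which passed the filter through 2 wild type and 2 heterozygous libraries and 0 homozygous ones, so nothing is read from its separation against those shares. It had 0.834, 0.802 and 0.969 CPM in wild type replicates 1 to 3, and 0.505, 0.763, 0.734 and 0.516 CPM in homozygous replicates 1 to 4. All 4 were below the wild type libraries, but these are 6 to 12 counts each. Per 1000 Olfr counts homozygous replicate 2 (0.956) was above all wild type libraries (0.663 to 0.728), so neither Olfr73 nor Olfr1507 was without overlap on that scale. In edgeR's test the log2 fold change was -0.46 (SE 0.33, 95% interval -1.18 to 0.26, unadjusted p = 0.204).

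The median log2 fold change of the 8 was 0.03, with 4 lower and 4 higher, whereas it was -0.29 over the 568 tested Olfr genes, of which 74.3% were lower, and 0.02 over all tested genes, of which 47.2% were lower. Olfr2 (I7) had the highest value (0.62, SE 0.54), with an interval from -0.55 to 1.79. For Olfr17 (P2) the log2 fold change was -0.17 (SE 0.24), with the narrowest interval of the 8, from -0.68 to 0.34.

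The CPM of Olfr17 was 4.26, 4.57 and 3.96 in wild type replicates 1 to 3. It was 3.47, 3.45, 4.55 and 3.96 across the 4 heterozygous libraries, and 3.53, 3.16, 3.37 and 5.08 across the 4 homozygous ones. The genotypes overlapped, and homozygous replicate 4 was the highest of all 11 libraries.

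The neighbours of Olfr17 among the model receptors, Olfr6 (M50) and Olfr2 (I7), varied from library to library within each genotype. Olfr6 had 3.34, 3.21 and 4.92 CPM in the 3 wild type libraries, 4.55, 5.49, 3.98 and 3.64 in the 4 heterozygous and 5.05, 2.73, 4.69 and 3.79 in the 4 homozygous ones. The genotypes overlapped, the lowest value was that of homozygous replicate 2, and the log2 fold change of homozygous against wild type was 0.09 (SE 0.28, 95% interval -0.51 to 0.70). Olfr2 had 0.927, 0.401 and 0.888 CPM in wild type, 1.36, 1.65, 1.23 and 0.428 in heterozygous, and 0.925, 0.436, 1.39 and 1.72 in homozygous libraries. Each genotype had 1 library of Olfr2 with 4 or 5 counts, and the genotypes overlapped.

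Olfr15 (OR3) went the other way from Olfr1507 in homozygous libraries without passing the test. It had 8.34, 7.62 and 12.0 CPM in wild type replicates 1 to 3 and 9.001, 9.60, 12.3 and 13.9 CPM in homozygous replicates 1 to 4. The genotypes overlapped, and the low libraries of both genotypes were those of set 1. In edgeR's test its log2 fold change was 0.27 (SE 0.24) with an unadjusted p of 0.296. Scaled to the Olfr counts it was 0.56 (unadjusted p = 0.0332, adjusted p = 0.483), a scaling that moves the median of all genes to 0.31. The ratio of the Olfr1507 count to the Olfr15 count, which no scaling changes, was 0.953 to 1.64 in wild type, 0.444 to 1.33 in heterozygous and 0.451 to 1.04 in homozygous libraries. These ranges overlap.

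**Figure D3:**
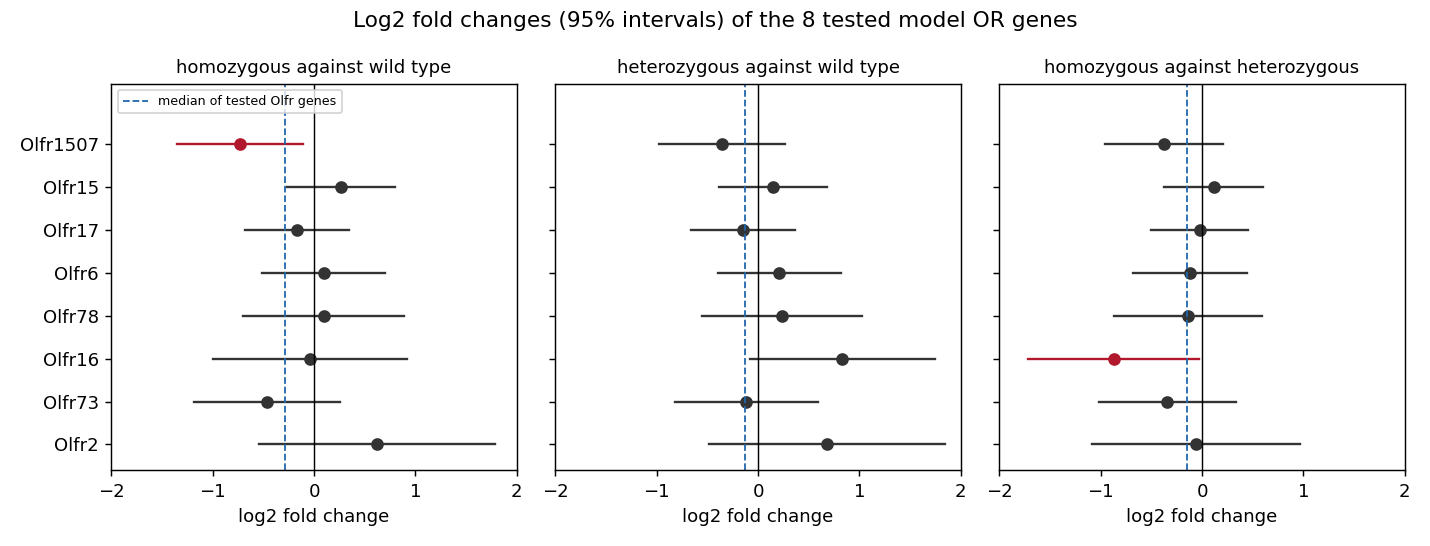
Log2 fold change (points) with its 95% interval (lines) of the 8 tested model OR genes in the 3 comparisons, in red where the unadjusted p was under 0.05, with the dashed line at the median of the tested Olfr genes. The interval of Olfr1507 is below 0 in homozygous against wild type, and that of Olfr16 is below 0 in homozygous against heterozygous.

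In heterozygous libraries against wild type, 0 of the 8 had an adjusted p under 0.05 in edgeR's quasi-likelihood test (0% of all tested genes; DESeq2 called 3 of all genes and no model receptor), and 0 had an unadjusted p under 0.05, against 2.24% of all tested genes and 1.23% of tested Olfr genes. In 0 of the 8 were the genotypes without overlap, against 2.51% of all tested genes and 3.87% of tested Olfr genes. The median log2 fold change of the 8 was 0.18, beside -0.13 over tested Olfr genes, and 3 of the 8 were lower, beside 65.7% of tested Olfr genes and 49.6% of all tested genes.

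Olfr16 (MOR23) had the lowest p in that comparison. It had 0.278, 0.481 and 0.888 CPM in wild type replicates 1 to 3, and 1.09, 0.863, 0.758 and 1.28 CPM in heterozygous replicates 1 to 4. Wild type replicate 3 was within the heterozygous range and the other 2 were below it. The log2 fold change was 0.83 (SE 0.42, 95% interval -0.08 to 1.74, unadjusted p = 0.0707 in edgeR's test). Without wild type replicate 3 it was 1.35 (unadjusted p = 0.0130, adjusted p = 0.872). Olfr16 passed the filter through 3 heterozygous libraries and 1 wild type library, which favoured a higher heterozygous level, so nothing is read from these p-values.

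Olfr1507 had 4.89, 10.5, 11.2 and 9.95 CPM in heterozygous replicates 1 to 4. Replicate 1 was below all homozygous libraries and replicate 3 was within the wild type range. The heterozygous mean of 9.14 ± 2.87 CPM was between those of the other genotypes. On the log2 scale heterozygous libraries were -0.36 from wild type (SE 0.28, unadjusted p = 0.233 by edgeR), while the step from heterozygous to homozygous libraries was -0.38 (SE 0.27, unadjusted p = 0.185). The second of these, with heterozygous replicate 1 left out, became -0.59 (unadjusted p = 0.0193, adjusted p = 0.9997).

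Olfr78 varied much more among heterozygous libraries than among wild type ones, with a coefficient of variation of 46.1% against 7.56%. Counting error alone would give 17.1% and 18.5%, so the wild type spread was narrower than counting alone gives. The difference in spread was not tested. It had 1.70, 4.47, 1.90 and 3.64 CPM in heterozygous replicates 1 to 4, but only 2.33 to 2.69 CPM in wild type libraries. In homozygous replicates it had 2.36, 3.27, 1.91 and 3.10 CPM. The wild type values lay inside the ranges of the other genotypes. Heterozygous replicate 2, its highest library, also had the highest count of Olfr560, with which Olfr78 shares exon sequence, at 12 counts. The next highest libraries of Olfr78, heterozygous replicate 4 and homozygous replicate 2, had only 3 and 0 counts of Olfr560. Whether reads of these genes were confused was not tested.

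Homozygous libraries were also compared with heterozygous ones, which both carry the deletion. Again 0 of the 8 passed the adjusted threshold (0% of all tested genes; DESeq2 called 2 of all genes and no model receptor), and 1 had an unadjusted p under 0.05, against 0.561% of all tested genes (0.241% lower) and 1.58% of tested Olfr genes. This was Olfr16, which passed the filter with 0 homozygous libraries at the required level, so nothing is read from its call or its separation against the shares of genes given here. It had 0.673, 0.436, 0.440 and 0.602 CPM in homozygous replicates 1 to 4. In CPM all of these were below the heterozygous libraries given above, and Olfr16 was the 1 receptor of the 8 without overlap (0.597% of all tested genes and 1.94% of tested Olfr genes). Per 1000 Olfr counts they overlapped, with homozygous replicate 1 (0.654) above heterozygous replicate 3 (0.635). The log2 fold change was -0.87 (SE 0.39, 95% interval -1.72 to -0.03, unadjusted p = 0.0441, adjusted p = 0.999996 in edgeR's test).

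The homozygous mean of Olfr16 (0.538 ± 0.119 CPM, n = 4) was close to that of wild type (0.549 ± 0.311, n = 3), and the heterozygous mean was the highest (0.998 ± 0.235, n = 4). In counts these are 4 to 8, 3 to 11 and 8 to 16 per library. The gene passed the filter through 3 heterozygous libraries and 1 wild type library, and its lower level in homozygous than in heterozygous libraries had an unadjusted p under 0.05 in 8 of 19 alternatives. Leaving out wild type replicate 2, heterozygous replicate 1, 2 or 4, or homozygous replicate 2, 3 or 4 each ended it, with log2 fold changes of -0.94 to -0.76 and unadjusted p from 0.0530 to 0.103 in edgeR's test. In this comparison 7 of the 8 receptors were lower, beside 68.7% of tested Olfr genes and 48.2% of all tested genes, and the median was -0.13 beside -0.15.

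M72 and M71 were too low for the test with the filter. The counts of Olfr160 were 7, 3 and 8 in the wild type libraries, 10, 9, 1 and 5 in the heterozygous ones (in the order of their numbers), and 8, 6, 7 and 6 in the homozygous ones. The genotypes overlapped fully, and heterozygous replicate 3 was the lowest. With no filter on low counts its log2 fold change was 0.18 (SE 0.56) for homozygous against wild type and 0.01 (SE 0.53) for heterozygous against wild type.

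Olfr151, the polymorphic pseudogene, had 14 counts in all. By library these were 0, 1 and 0 for wild type, 6, 1, 2 and 0 for heterozygous, and 0, 0, 2 and 2 for homozygous mice. In 5 of the 11 libraries it was at 0, which allows up to 3 counts, and no genotype could be told from another. Olfr160 had 70 counts, and per kilobase of coding sequence it was higher than Olfr151 in 10 of 11 libraries.

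The genes around each receptor were then examined, taking Olfr genes that start within 100000 bases. Olfr15 and Olfr16 had 0 such neighbours. Olfr1507 had 4, and its level per kilobase was above all 4 by either length. Per kilobase of coding sequence Olfr1507 had 11.7, 13.3 and 12.2 CPM in the wild type libraries. The 4 heterozygous libraries gave 5.21, 11.2, 11.9 and 10.6, and the 4 homozygous ones 9.94, 5.34, 7.81 and 6.69. Its close relative Olfr1508 had 1.59, 3.79 and 3.47 CPM per kb in wild type and 3.08, 2.58, 2.92 and 2.50 in homozygous replicates. These overlapped, whereas those of Olfr1507 did not.

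The log2 fold change in homozygous against wild type libraries was -0.10 (SE 0.37) for Olfr1508, 0.39 (SE 0.35) for Olfr1509 and 0.28 (SE 0.62) for Olfr1511. Of the 4 tested neighbours 1 was lower, beside 74.3% of tested Olfr genes. An unadjusted p under 0.05 in edgeR's test was reached by 0 of the 4, beside 3.02% of all tested genes and 6.16% of tested Olfr genes. The difference between Olfr1507 and these neighbours was not tested.

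**Figure D4:**
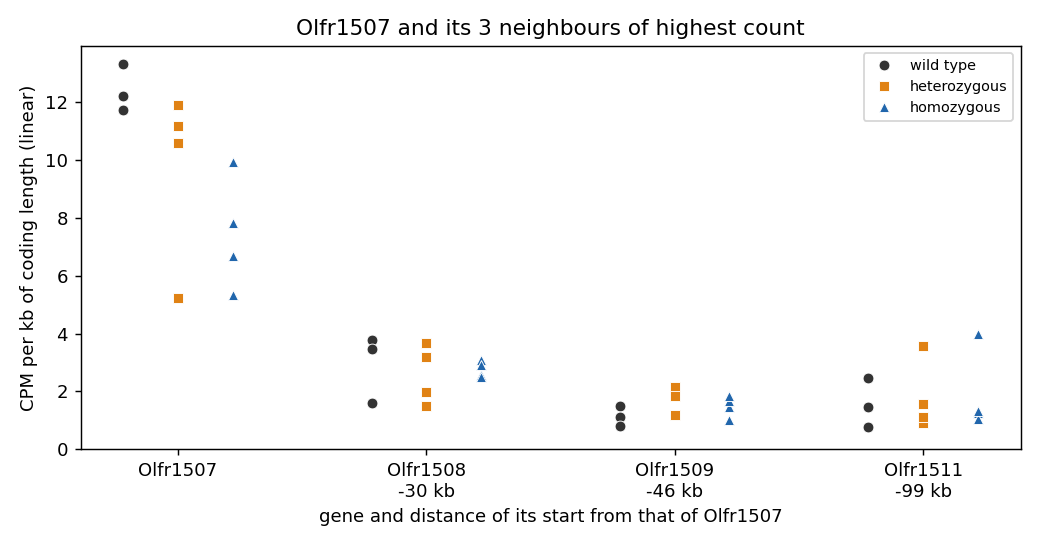
CPM per kilobase of coding sequence (linear axis from 0) of Olfr1507 and its 3 neighbours of highest count in each of the 11 libraries, ordered by the distance between gene starts, with 1 point per library and colours and symbols for genotype. Olfr1507 is above its neighbours in all libraries, from 5.21 to 13.3, and only there do wild type and homozygous points separate.

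In the other clusters, Olfr6 was above 8 of its 9 neighbours per kilobase of exons and Olfr17 above 5 of 5, while Olfr2, between them, was above 3 of 7. Olfr78 was above 8 of 9 and Olfr73 above 8 of 11. Olfr160 was above 1 of 4 and Olfr151 above 0 of 4. Of the tested neighbours in homozygous against wild type libraries, 2 of 4 were lower around Olfr2 (median log2 fold change -0.07), 3 of 5 around Olfr6 (-0.07), 1 of 3 around Olfr17 (0.02) and 1 of 1 around Olfr73 (-0.49). Around Olfr78 they were 3 of 3 (-0.69), beside 0.10 (SE 0.36) for Olfr78 itself, a difference that was not tested. Around Olfr160 and Olfr151 they were also 3 of 3 (-0.47), namely Olfr874, Olfr875 and Olfr876. These shares stand beside the 74.3% of all tested Olfr genes that were lower. No tested neighbour of any model receptor had an unadjusted p under 0.05 in that comparison, beside 3.02% of all tested genes and 6.16% of tested Olfr genes.

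The Olfr genes whose levels over the 11 libraries were most like those of a model receptor were found by the root mean square difference of log2 CPM, each centred on its mean. For Olfr17 these were Olfr12 (0.21), Olfr329-ps (0.22) and Olfr370 (0.24), against a median of 0.50 over 567 Olfr genes. For Olfr1507 they were Olfr1195 (0.20), Olfr788 (0.24) and Olfr1259 (0.24), against a median of 0.57. The points share libraries, depth and the 2 sets, and no likeness was sought for Olfr160, which was not tested.

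The genes through which an OR acts and is selected were read from the same fit. Of 10 transduction genes, which carry the signal from the receptor to the cell's currents, 0 passed the adjusted threshold and 0 an unadjusted p under 0.05 in any comparison, beside 3.02%, 2.24% and 0.561% of all tested genes at the latter in the 3 comparisons. The fitted level of all 10 was below wild type in homozygous libraries, by a median log2 fold change of -0.29, beside 47.2% of all tested genes that were lower. The lowest p was that of Cngb1, a channel subunit (-0.40, SE 0.21, unadjusted p = 0.0845 in edgeR's test), and next was Gnal, the olfactory G protein (-0.34, SE 0.20). This median was about that of the log2 fold changes of tested Olfr genes. Most of these transduction genes, and Rtp1 of the export genes, are also among the mature OSN markers above, so the lists are not separate observations. Of the 3 genes for the export of receptors to the membrane, Rtp1 (-0.25, SE 0.18) and Rtp2 (-0.32, SE 0.23) were lower and Reep1 higher (0.13, SE 0.16), with 0 past either threshold.

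Of 14 genes of OR choice, among them Lhx2 and Ldb1 of the OR enhancers and Lbr, whose absence allows OR genes to be silenced together, 0 passed either threshold in any comparison. In homozygous against wild type libraries 5 of 14 were lower, with a median log2 fold change of 0.04, beside 47.2% and 0.02 over all tested genes, of which 3.02% had an unadjusted p under 0.05. The lowest p was that of Lhx2 (log2 fold change 0.21, SE 0.18), followed by Ehmt2, a histone methyltransferase (log2 fold change 0.27, SE 0.23).

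Of 15 axon targeting genes, 0 passed the adjusted threshold in any comparison, and the fitted level of 9 of 15 was below wild type in homozygous libraries (median log2 fold change -0.05), beside 47.2% of all tested genes. At an unadjusted p under 0.05 there was 1 of 15 in homozygous and 2 of 15 in heterozygous against wild type libraries, beside 3.02% and 2.24% of all tested genes. Sema3a, a repellent ligand that sorts OSN axons, had an unadjusted p of 0.00846 (log2 fold change -0.56, SE 0.18) in edgeR's test there, and of 0.0251 (-0.46, SE 0.18) in heterozygous against wild type libraries. Pcdh10, an adhesion protein, had 0.77 (SE 0.34, unadjusted p = 0.0410) in the latter. The 2 comparisons share the wild type libraries, and in both the fitted level of the skeletal muscle markers was higher in the deletion genotype. By library their sum was high in some deletion libraries only. Heterozygous replicates 1 (14.1 CPM) and 3 (14.3) and homozygous replicate 4 (16.3) were within the wild type range of 5.47 to 50.03. Of these 6 markers 4 in homozygous and 6 in heterozygous libraries had an unadjusted p under 0.05, and 0 an adjusted one. Their part in these values was not tested for genes other than the model receptors.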

How the data were processed

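Per the labels, MOE RNA was DNase-treated, polyA-selected and made into libraries with a directional kit. Per the submitters' processing notes, the authors used Trimmomatic (0.36), HISAT2 (2.1.0), featureCounts from Subread (1.6.2) and DESeq2 (1.20.0) on GRCm38 (mm10). The deposited read counts per gene are not normalized and were used for all tests. The authors also deposited a signal, the count divided by a size factor, from which only its list of genes served in an alternative. Which annotation and strand setting were used, and how multi-mapping reads were handled, is not given in the sources used here.

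Counts were fitted with edgeR (4.0.16, R 4.3.3): TMM scaling, filterByExpr by genotype, 3 genotypes in 1 quasi-likelihood fit over 11 libraries, and Benjamini-Hochberg adjustment over 16574 genes at 0.05. Intervals are at 95%. CPM uses TMM-scaled totals of tested genes. DESeq2 (1.42.0) was an alternative, and scripts were tested on simulated data. Lengths and sequences came from GENCODE M21, whose models matched 1113 of 1125 Olfr symbols (98.9%), and other receptor names from the RefSeq gene table. Sequences were aligned with Biopython (1.88). A count of 0 allows 3 counts, and floors cover counting error only.

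The receptors, lists and tests were chosen with earlier results of these data known. Named genes were the 10 receptors, up to 3 Olfr neighbours of highest count within 100000 bases, the 3 most alike for Olfr17 and Olfr1507 (none for Olfr160, which was not tested), the 3 Olfr genes highest per kilobase, and up to 2 genes of lowest p per pathway list. Olfr560 was added for its overlap, and Ldb1, Lbr and Reep1 as members of their lists, after values were seen, as was the ratio of Olfr1507 to Olfr15. The pairing check correlated deviations from the genotype means of same-numbered libraries. Wild type and homozygous replicates 1 to 3 gave 0.33, 0.42 and 0.40, beside a median of 0.16 over the differently numbered pairs across genotypes. Each of these pairs 1 to 3 shares a library set. Same-numbered pairs with heterozygous libraries, all from opposite sets, gave -0.58 to -0.19. The check cannot tell a pairing from the sets, and the labels state no pairing. The replicate block was therefore run as an alternative only, and the main fit has no block.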

Additional observations from a re-analysis of the deposited data

How the results depend on the processing

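Depth limited the low receptors: Olfr2, Olfr16, Olfr73 and Olfr160 had 1 to 21 counts per library and Olfr151 0 to 6, and how multi-mapping reads were counted is unknown. Of 500 recomputed log2 fold changes of the tested receptors, 469 kept their direction and 31 reversed. The adjusted count stayed at 0 in all alternatives. The count at an unadjusted p under 0.05 in homozygous against wild type libraries (1, Olfr1507) became 0 with the replicate block, while all tested genes went from 500 to 286, and in homozygous against heterozygous libraries (1, Olfr16) it became 0 with the replicate block, with a mean CPM of at least 1 (which left Olfr16 out), scaling to the summed Olfr counts, only these genotypes in the fit (Olfr16 not tested), the skeletal muscle level as a covariate, and DESeq2. The log2 fold change of Olfr16 in homozygous against heterozygous libraries was -0.89 to -0.76 over the 8 alternatives that kept all libraries and tested it. In the main fit it was -0.87. Where no reason is given, the cause was not tested. Leaving out 1 library at a time gave 0 to 1 in each of the 3 comparisons. The replicate block with only 2 genotypes and the muscle covariate were chosen after seeing the data.

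The median rank of the 10 receptors, 365 per kilobase of exons, was 207.5 by coding length and 200.0 with no length correction, the former over 1109 genes in place of 1113. It was 413.5 in the wild type libraries only and 341.5 to 391.0 leaving out 1 library at a time. Their share of Olfr counts in homozygous libraries was 112.5% of wild type (leave-one-out 108.6% to 116.3%), and as CPM of unscaled totals it was 86.8%. Leaving out 1 library at a time, their mean share of Olfr counts was 2.95% to 3.05%.

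Reversals were all of values that passed no test. For Olfr78 the log2 fold change in homozygous against wild type libraries (0.10) was -0.067 with the replicate block, -0.032 with that block in only 2 genotypes and -0.17 with the muscle covariate, under which heterozygous against wild type (0.24) was -0.074. Scaling to Olfr counts, which moves the median of all genes to 0.31, 0.15 and 0.15 in the 3 comparisons, gave 0.24 for Olfr16 and 0.10 for Olfr17 in homozygous against wild type, 0.027 for Olfr73 in heterozygous against wild type, and 0.080 for Olfr2, 0.019 for Olfr6, 0.11 for Olfr17 and 0.028 for Olfr78 in homozygous against heterozygous libraries. Leaving out 1 library at a time gave ranges across 0. In homozygous against wild type these were -0.026 to 0.32 for Olfr6, -0.34 to 0.48 for Olfr16 and -0.027 to 0.23 for Olfr78. In heterozygous against wild type Olfr78 had -0.053 to 0.43. In homozygous against heterozygous libraries they were -0.34 to 0.18 for Olfr2, -0.24 to 0.023 for Olfr6, -0.033 to 0.22 for Olfr15, -0.20 to 0.066 for Olfr17 and -0.34 to 0.15 for Olfr78.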
